A study of Mus musculus with 20 samples.

Results

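The small leucine-rich proteoglycans (SLRPs) described here are 8 genes, Dcn, Bgn, Aspn, Lum, Fmod, Prelp, Omd and Ogn, taken by name from 49005 genes with counts in mouse heart RNA-seq libraries. All 8 passed the filter on low counts, as did 18069 genes in all. The hearts came from wild-type C57BL/6 mice of 12 weeks, female or male, fed chow or a high-fat diet. The libraries analysed were 5 of chow-fed females, 4 of chow-fed males, 5 of high-fat females and 5 of high-fat males, made from polyA-selected RNA. The high-fat samples carry the tag PA in their titles and were read as the high-fat groups because the other titles name chow; what the diet held and how long it was fed are not given in the sources used here. All 4 groups share the strain and genotype. The labels do not say whether each library came from its own animal, so p-values measure the spread between these libraries.

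SLRPs are small secreted proteins of the extracellular matrix, built from a run of leucine-rich repeats that binds collagen, with sulfated sugar chains attached to many of them. They set the spacing and thickness of collagen fibrils and hold growth factors such as TGF-beta in the matrix. In the heart they are made mainly by fibroblasts. Decorin (Dcn), biglycan (Bgn) and asporin (Aspn) form class I, the first 2 carrying chondroitin or dermatan sulfate. Lumican (Lum), fibromodulin (Fmod), PRELP (Prelp) and osteomodulin (Omd) form class II, many members of which carry keratan sulfate chains or sulfated tyrosines. Osteoglycin, or mimecan (Ogn), belongs to class III.

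Levels are given as CPM, the counts of a gene scaled to a common library size (TMM-adjusted). Total counts ran from 57805110 to 85794067 per library. High-fat females 4 and 5 stood apart from the other 17 libraries. On the first principal component they lay at 95.02 and 131.88, against -20.86 to -1.89 in the rest. The slope of level on gene GC content was 0.59 and 0.86 log2 units per 10 percentage points in these 2, against -0.06 to 0.14 elsewhere, and the nuclear RNA Malat1 was at 117 and 63.9 CPM, against 1132 to 1533. Results on high-fat females were therefore computed with all 19 libraries and with the 17. The 10 cardiomyocyte markers listed, Myh6 and Tnnt2 among them, were all present, with a summed level of 106500 to 126800 CPM.

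The members lie in 3 clusters and on the X chromosome (GRCm38 coordinates, as in the files). Dcn (chromosome 10, 97479500 to 97518162) lies beside Lum (97565501 to 97572703), both on the plus strand. Aspn (chromosome 13, 49544443 to 49567565), Omd (49582766 to 49592609) and Ogn (49608071 to 49624500) follow each other on the plus strand, with the family gene Ecm2 just before them. Prelp (chromosome 1, 133910304 to 133921414, minus strand) and Fmod (134037254 to 134048277, plus strand) are neighbours, and Bgn lies at 73483602 to 73495933 of chromosome X. The sequences of 6 members' promoters were in the RefSeq table used (GRCm38.p6). The 3 neighbours on chromosome 13 had low values in 2 libraries, described further on. The level of Prelp, like that of Omd, differed between diets in females with or without those libraries. The 250 bases before the start that RefSeq gives are printed for the 3 neighbours and for Prelp. They are at chr13:49544193-49544442 (Aspn), chr13:49582212-49582461 (Omd), chr13:49607765-49608014 (Ogn) and chr1:133921402-133921651 (Prelp, minus strand), each written 5′ to 3′ along the gene. For Omd, Ogn and Prelp the RefSeq start is not the gene's outer end in the files, so these windows do not adjoin the spans given above. Capitals mark matches, on either strand, to the TATA box TATAAA, the CCAAT box, the nuclear receptor motif AGGTCA and the SMAD-binding element CAGAC.
Aspn: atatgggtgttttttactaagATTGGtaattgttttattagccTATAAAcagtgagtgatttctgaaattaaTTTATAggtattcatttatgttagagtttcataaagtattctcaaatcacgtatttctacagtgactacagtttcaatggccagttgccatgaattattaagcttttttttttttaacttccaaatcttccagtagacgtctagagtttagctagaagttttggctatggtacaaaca
Omd: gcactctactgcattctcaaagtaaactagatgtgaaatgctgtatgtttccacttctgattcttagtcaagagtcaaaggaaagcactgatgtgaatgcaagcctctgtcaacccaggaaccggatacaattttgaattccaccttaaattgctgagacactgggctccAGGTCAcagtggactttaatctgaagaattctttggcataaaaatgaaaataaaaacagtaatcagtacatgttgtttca
Ogn: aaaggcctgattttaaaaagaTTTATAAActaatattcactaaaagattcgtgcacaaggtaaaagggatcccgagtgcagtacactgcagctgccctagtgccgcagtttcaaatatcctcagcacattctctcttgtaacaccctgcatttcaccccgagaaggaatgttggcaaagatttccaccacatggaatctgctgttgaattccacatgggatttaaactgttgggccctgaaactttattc
Prelp: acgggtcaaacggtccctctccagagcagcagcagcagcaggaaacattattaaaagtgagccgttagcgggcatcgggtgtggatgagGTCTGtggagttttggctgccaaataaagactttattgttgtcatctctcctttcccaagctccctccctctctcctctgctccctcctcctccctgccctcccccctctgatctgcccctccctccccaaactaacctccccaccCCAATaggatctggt
The Aspn window held TATAAA on both strands and a reverse CCAAT. In Ogn the forward and reverse matches to TATAAA overlap and make 1 run of capitals. The Omd window held AGGTCA alone, and Prelp held CCAAT and a reverse CAGAC. Of 32851 promoters of this length, 12.4% held TATAAA, 33.8% CCAAT, 14.0% AGGTCA and 42.2% CAGAC, so such letters are common and a match is a description only. GC content was 30.0% in the Aspn window, 38.4% in Omd, 42.0% in Ogn and 55.6% in Prelp, against a median of 52.4% over all promoters.

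Per length of transcript, decorin was the most abundant of the 8 and osteomodulin the least. Over the 17 libraries Dcn stood at 185 ± 8.74 CPM per kilobase (SD, n = 17) and Bgn at 84.1 ± 10.6. Ogn (28.3 ± 3.20) and Lum (19.7 ± 4.82) followed, with ranges that overlapped, 21.7 to 33.5 and 12.9 to 27.0. Aspn (8.79 ± 1.63) and Prelp (8.76 ± 0.86) could not be told apart in level. Fmod lay at 1.57 ± 0.24 CPM per kilobase, below the ranges of the genes above, and Omd at 0.29 ± 0.09, below that of Fmod. The files count a read in each exon piece it spans, which raises genes of many short exons, such as Dcn, Bgn and Aspn with 8 exons each, over Lum, Fmod and Prelp with 3. In the 1 chow male library that was counted per gene, and enters no test, Lum per kilobase was 12.1% of Dcn, against 8.02% in the mean of the other chow males. There the order was Dcn, Bgn, Ogn, Lum, Prelp, Aspn, Fmod, Omd, with Prelp at 6.14% and Aspn at 5.24% of Dcn.

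**Figure D1:**
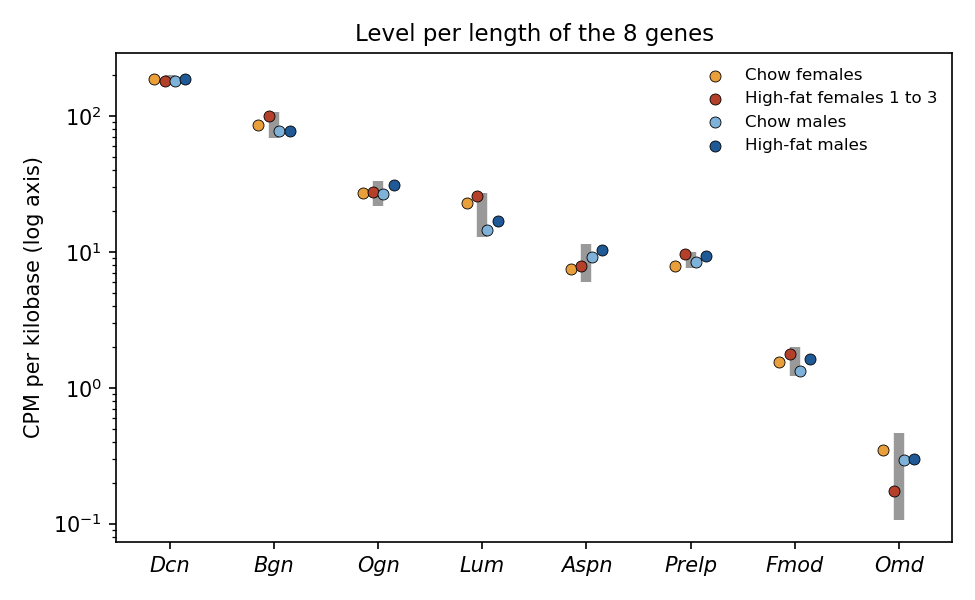
Level per kilobase of transcript of the 8 genes on a log axis; points are group means (high-fat females 4 and 5 left out) and grey bars the range over 17 libraries. Dcn sits near 185 CPM per kilobase and Omd near 0.29, and the bars of Ogn and Lum, and of Aspn and Prelp, overlap.

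Members were counted as called at an adjusted p under 0.05 (edgeR quasi-likelihood test, Benjamini-Hochberg over the 18069 genes). The 4 groups enter more than 1 comparison each, so the comparisons share libraries. Between diets in females 2 of 8 members were called, Prelp higher and Omd lower on high fat, where 2.53% of all genes were called (4.95% without high-fat females 4 and 5, with the same 2 members called). Between diets in males 0 of 8 were called, where 0.764% of all genes were (2.59% without those libraries). At an unadjusted p under 0.05, 1 of the 8 passed in males, where 1539 of 18069 genes did. DESeq2 called 0 of the 8 and 252 of all genes. Over both sexes together Prelp alone was called, against 2.93% of genes (8.47% without them). For the difference of the diet effect between the sexes 0 of 8 were called and 0.0% of all genes, with 17 libraries as with 19; at an unadjusted p under 0.05, 3 members and 1839 genes passed, and DESeq2 called 0 members and 49 genes. Between the sexes on chow Lum alone was called, against 3.22% of genes (10.5% without them). On high fat Lum and Bgn were called higher in females and Omd lower, against 10.3% of genes (10.4% without them, where the call of Omd was lost). For no member, then, was the diet effect shown to differ between the sexes.

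**Figure D2:**
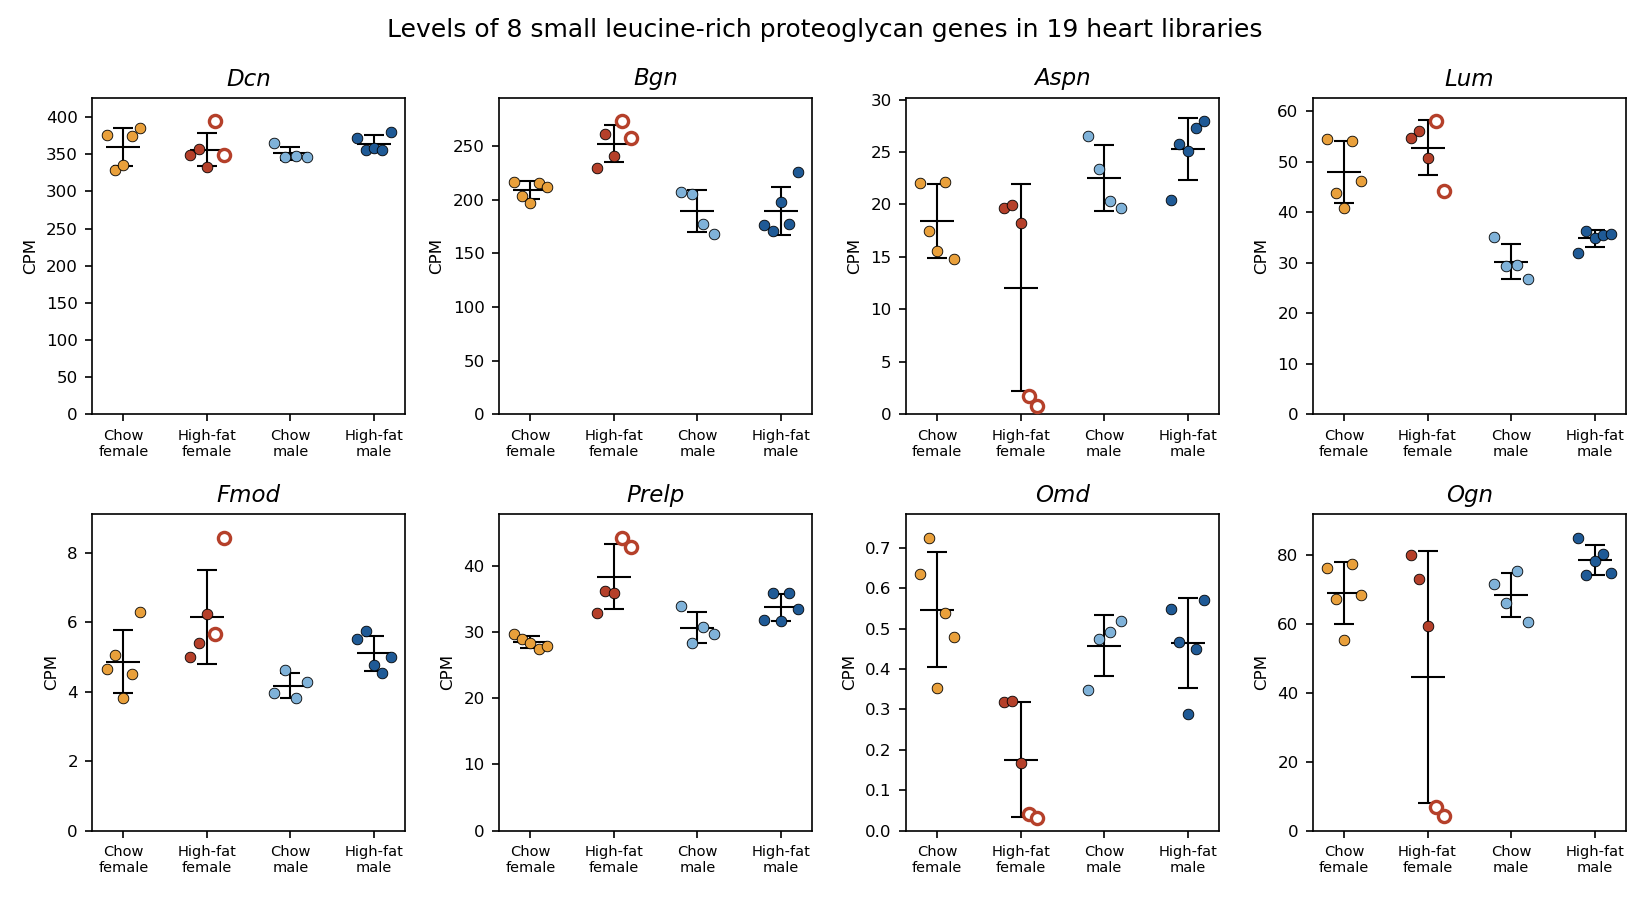
CPM of each gene in the 19 libraries (points), with group mean and SD (bars); open points are high-fat females 4 and 5. Lum is higher in every female library than in every male one, and the open points of Aspn, Ogn and Omd lie near 0.

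Lumican was higher in females than in males under both diets. Lum regulates collagen fibril thickness and is best known from the cornea. It stood at 54.4, 43.8, 40.9, 54.2 and 46.1 CPM in the chow females and at 35.0, 29.4, 29.6 and 26.7 CPM in the chow males. In the high-fat females it was at 54.7, 56.1, 50.7, 58.0 and 44.3 CPM, and in the high-fat males at 32.0, 36.3, 34.9, 35.5 and 35.6 CPM. The highest male library lay below the lowest female library, whatever the diet. On chow the level was 1.59 times higher in females (log2 difference 0.67 ± 0.10 SE, adjusted p = 0.00068), and on high fat 1.51 times (0.60 ± 0.09, adjusted p = 0.00062). Without high-fat females 4 and 5 the log2 differences were 0.67 and 0.62. The call was made in 19 of 19 fits that each left out 1 library, in both comparisons. Between diets Lum differed by 0.14 ± 0.09 in females (adjusted p = 0.405) and 0.21 ± 0.10 in males (adjusted p = 0.576), with overlapping groups. In a whole heart, more cells that express a gene and more RNA per cell cannot be told apart.

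Set against its neighbour decorin in the same library, Lum counts were 13.3 ± 1.20% (SD, n = 5) of Dcn counts in chow females and 14.8 ± 1.24% (n = 5) in high-fat females. In males the share was 8.58 ± 0.78% (n = 4) on chow and 9.58 ± 0.63% (n = 5) on high fat. The lowest female share, 11.98%, was above the highest male share, 10.21%. Decorin itself, which decorates fibrillar collagen and binds TGF-beta, was nearly level across the groups. Its group means were 360 ± 26.1 CPM in chow females, 356 ± 22.8 in high-fat females. In males they were 351 ± 8.82 CPM on chow and 364 ± 11.03 on high fat. The 4 groups overlapped, and no log2 difference over the 19 libraries exceeded 0.07 in size. Its difference between diets in females was -0.01 ± 0.05 (approximate 95% interval -0.12 to 0.10, adjusted p = 0.906), and -0.06 ± 0.05 without high-fat females 4 and 5 (adjusted p = 0.564). With an offset for GC content in each library, Dcn was higher in females than in males on high fat (0.79 ± 0.24, adjusted p = 0.049), a call that the fit without the offset did not make.

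PRELP, a basic matrix protein that anchors basement membranes to connective tissue, was higher on high fat in females. Prelp was at 29.7, 29.0, 28.4, 27.4 and 27.9 CPM in chow females and at 32.8, 36.1, 35.8, 44.3 and 42.8 CPM in high-fat females. Every high-fat female lay above every chow female, and the last 2 values, those of high-fat females 4 and 5, were the highest of all 19. The rise was 1.35-fold (log2 change 0.43 ± 0.08, adjusted p = 0.0062), and without those 2 libraries 1.23-fold (0.29 ± 0.06, adjusted p = 0.0095). In males the values were 33.9, 28.3, 30.8 and 29.8 CPM on chow and 31.9, 35.9, 31.6, 35.8 and 33.4 CPM on high fat, which overlapped (0.14 ± 0.08, adjusted p = 0.727). Over both sexes the rise was 0.28 ± 0.06 (adjusted p = 0.0069), and the diet effects of the sexes differed by 0.29 ± 0.11 (adjusted p = 0.392), or by 0.15 without the 2 libraries. The call in females was made in 19 of 19 fits without 1 library. It was lost when only the female groups were fitted (adjusted p = 0.136), or when the chow male library counted per gene was added (adjusted p = 0.067). Of all genes, 21 of 17193 were called in the first of these fits and 71 of 17909 in the second.

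Biglycan, a class I proteoglycan of the pericellular matrix and a signal to innate immune receptors when released, was higher in females than in males on high fat. Bgn stood at 230, 261, 240, 273 and 257 CPM in the high-fat females and at 177, 171, 198, 178 and 226 CPM in the high-fat males. The groups did not overlap, although the lowest female and the highest male library were close. The log2 difference was 0.41 ± 0.08 (1.33-fold, adjusted p = 0.0032), or 0.36 ± 0.08 (adjusted p = 0.0087) without high-fat females 4 and 5. On chow, Bgn was at 216, 203, 197, 216 and 212 CPM in females and at 207, 205, 177 and 168 CPM in males, overlapping groups with a difference of 0.14 ± 0.08 (adjusted p = 0.424). Between diets in females all 5 high-fat libraries lay above all 5 chow libraries, but the difference of 0.27 ± 0.08 missed the threshold (adjusted p = 0.066; 0.124 without the 2 libraries). Leaving out either high-fat female 1 or high-fat male 5 brought that adjusted p to 0.040 and 0.039. In males the diet difference was 0.00 ± 0.08 (approximate 95% interval -0.17 to 0.18), and the diet effects of the sexes differed by 0.27 ± 0.11 (adjusted p = 0.445).

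Fibromodulin, a low-level relative of lumican that binds the same site on collagen, did not reach the threshold in any comparison. Fmod group means were 4.87 ± 0.92 CPM (n = 5) in chow females and 6.16 ± 1.35 (n = 5) in high-fat females. In males they were 4.17 ± 0.36 (n = 4) and 5.12 ± 0.50 (n = 5). The log2 difference between diets was 0.34 ± 0.14 in females and 0.30 ± 0.15 in males, and 0.32 ± 0.10 over both sexes (adjusted p = 0.109). Without chow female 5, whose 6.29 CPM was the highest of the chow libraries, the last adjusted p was 0.045. Without high-fat females 4 and 5 the difference over both sexes was 0.24 ± 0.09 (adjusted p = 0.089).

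**Figure D3:**
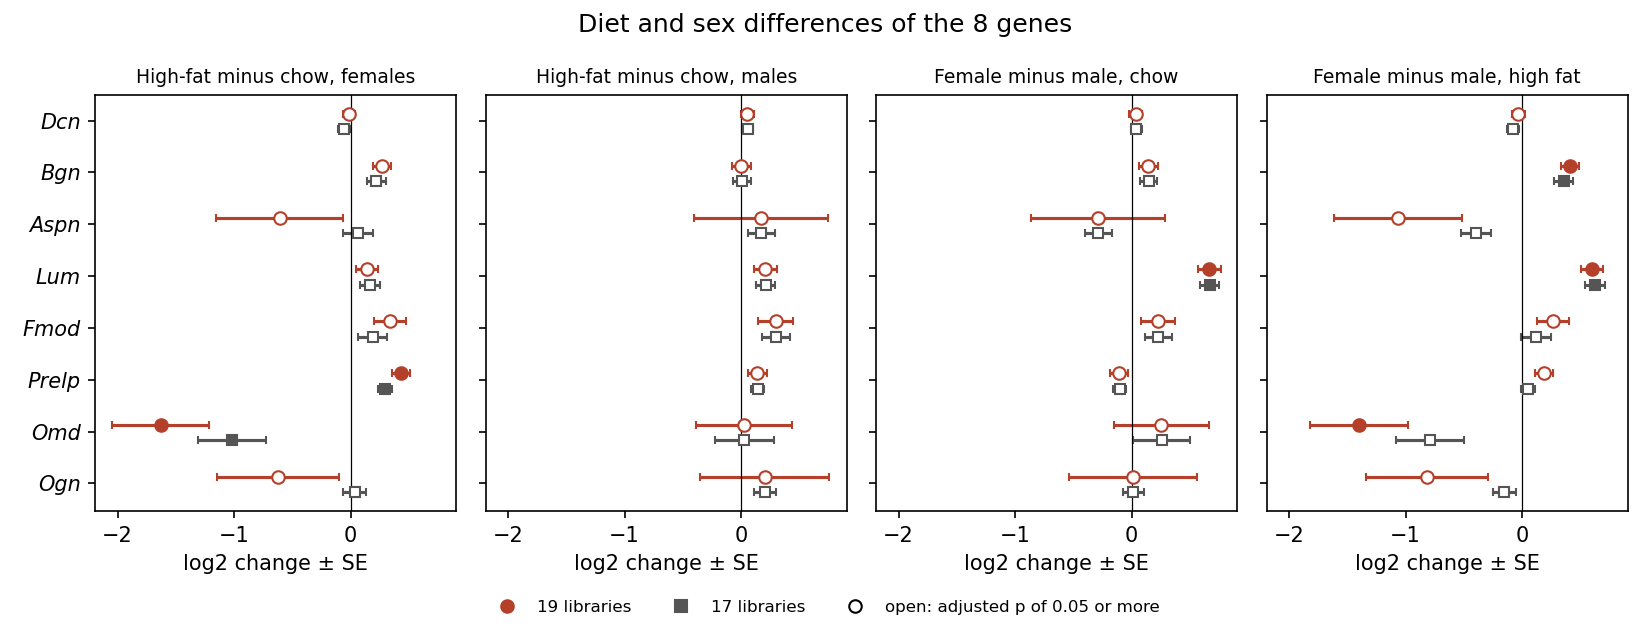
Log2 differences with SE for the 8 genes in 4 comparisons, from 19 libraries (circles) and from 17 (squares, without high-fat females 4 and 5); filled symbols have an adjusted p under 0.05. Lum lies near 0.6 in both comparisons of the sexes, and the circles of Aspn, Ogn and Omd in the comparisons with high-fat females lie further to the left than the squares.

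The 3 neighbours on chromosome 13 had low values in high-fat females 4 and 5. Aspn, whose protein binds collagen and TGF-beta, was at 19.6, 19.9 and 18.2 CPM in high-fat females 1 to 3 and at 1.75 and 0.76 CPM in 4 and 5. Ogn was at 79.9, 73.0 and 59.5 CPM in the first 3 and at 6.78 and 4.13 CPM in the other 2. The mean of the 2 libraries was thus 6.52% of that of the 3 for Aspn and 7.71% for Ogn. Ecm2, next to Aspn, was at 60.0%. The other members did not share this: Lum was at 94.95%, Dcn at 107%, Bgn at 109%, Prelp at 125% and Fmod at 127%. Omd had 3 and 2 counts in the 2 libraries and is described further on. Beside genes of like GC content in the same libraries, Dcn, with 37.4% GC, had a log2 difference of 0.10 between these libraries, where the median of 242 genes within 1 percentage point of its GC content was -1.69 and the 90th percentile 0.10. Ogn, with 36.3% GC, had -3.67 against a median of -1.49 over 149 such genes, and Aspn, with 34.4%, had -3.84 against -1.35 over 50. The 10th percentiles of those genes were -3.40 and -3.47, and 4.7% and 6.0% of them lay lower than Ogn and Aspn.

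The low values held along the whole transcripts. In high-fat females 4 and 5 each of the 7 Ogn exons stood at 6.22 to 9.05% of its mean in high-fat females 1 to 3, and each of the 8 Aspn exons at 5.13 to 7.58%. The Ogn exons held 29.8 to 43.9% GC and the Aspn exons 29.5 to 44.8%. All 8 Dcn exons, with 35.9 to 51.1% GC, lay between 102 and 110%, and the 3 Lum exons, with 35.2 to 46.4%, between 92.1 and 98.7%. The part of RNA quality or library preparation in this pattern was not tested.

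**Figure D4:**
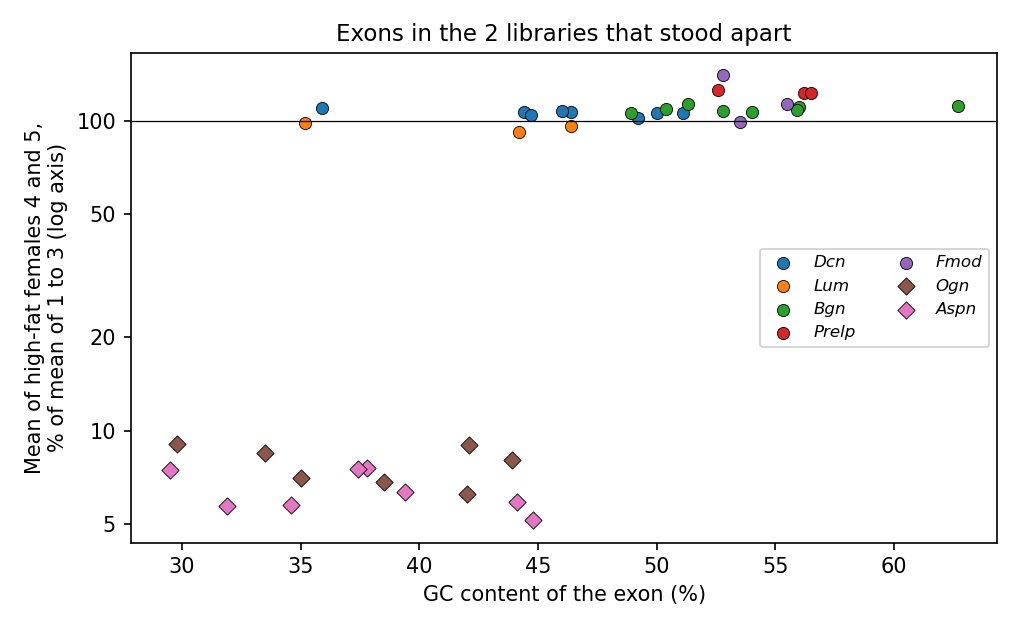
Mean level of each exon in high-fat females 4 and 5 as a percentage of the mean in high-fat females 1 to 3 (log axis), against the exon's GC content. Exons of Aspn and Ogn (diamonds) lie at 5 to 9%, and those of Dcn, Lum and Bgn at 92.1 to 113.5%. Exons of Prelp lie at 122.7 to 125.6% and those of Fmod at 98.95 to 140.3%.

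With these 2 libraries the standard errors of Aspn and Ogn were large in every comparison, and neither gene was called. Between diets in females the log2 difference was -0.61 ± 0.55 for Aspn and -0.63 ± 0.52 for Ogn, and without the 2 libraries it was 0.06 ± 0.13 and 0.04 ± 0.10. In the chow females Aspn was at 22.1, 17.5, 15.6, 22.1 and 14.8 CPM and Ogn at 76.3, 67.3, 55.2, 77.4 and 68.3 CPM, so high-fat females 1 to 3 lay within these ranges for Aspn and overlapped them for Ogn. In males Aspn was at 26.5, 23.4, 20.3 and 19.7 CPM on chow and at 20.4, 25.8, 25.1, 27.3 and 27.9 CPM on high fat. Every high-fat male lay above every high-fat female for Aspn, the first 3 females included, with a log2 difference of females to males of -0.39 ± 0.13 over the 17 libraries (adjusted p = 0.059). Ogn in males was at 71.6, 66.0, 75.4 and 60.5 CPM on chow and at 85.0, 74.1, 78.4, 80.4 and 74.9 CPM on high fat, a difference of 0.20 ± 0.09 over the 17 libraries (adjusted p = 0.289) with groups that overlapped.

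Osteomodulin, a keratan sulfate proteoglycan known from bone, was near the limit of detection, and its lower level in high-fat females rests on few reads. Omd had 19, 25, 11, 3 and 2 counts in the high-fat females and 45, 56, 25, 34 and 36 counts in the chow females. As CPM these were 0.319, 0.321, 0.166, 0.041 and 0.030 against 0.634, 0.725, 0.354, 0.538 and 0.480, and the groups did not overlap. Omd fell by 1.63 ± 0.42 on the log2 scale between diets in females (adjusted p = 0.0456), and by 1.02 ± 0.29 without high-fat females 4 and 5 (adjusted p = 0.0478). Of 19 fits that each left out 1 library, 16 lost this call, with adjusted p up to 0.094. The same gene was at 0.349, 0.473, 0.492 and 0.518 CPM in males on chow and at 0.549, 0.467, 0.288, 0.449 and 0.570 CPM in males on high fat, a diet difference of 0.02 ± 0.41 (adjusted p = 0.999). Between the sexes on high fat the difference was -1.40 ± 0.42 (adjusted p = 0.043), and -0.79 ± 0.29 without the 2 libraries (adjusted p = 0.092). Of the 19 fits without 1 library, 6 made this call. The diet effects of the sexes differed by -1.65 ± 0.59 (adjusted p = 0.383).

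Between diets in females the groups did not overlap for 3 of 8 members (Prelp, Bgn, Omd), where this held for 4.53% of all genes (12.7% and the same 3 members without high-fat females 4 and 5). In males it held for 0 of 8, where it held for 7.58% of genes. Between the sexes on chow it held for Lum alone, against 11.7% of genes, and on high fat for 3 of 8 (Lum and Bgn higher in females, Aspn lower), against 10% (17.6% and the same number of members without the 2 libraries). The median log2 difference of the 8 members between diets was 0.06 in females and 0.15 in males, beside -0.02 and 0.00 over all genes. In males all 8 members had a positive estimate, and none was called.

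Of 10 other genes of the family, 6 passed the filter. Podn, which encodes podocan, a class V member, fell in males on high fat, from 16.3 ± 2.22 CPM (SD, n = 4) to 12.6 ± 0.50 (n = 5). The log2 change was -0.37 ± 0.08 (adjusted p = 0.032), 0.365% of all genes fell in that comparison, and the groups did not overlap. In females Podn was at 19.5 ± 1.52 CPM on chow and 21.3 ± 0.82 on high fat, a difference of 0.13 ± 0.07 (adjusted p = 0.353). On high fat it was higher in females by 0.75 ± 0.08 (adjusted p = 8.1e-06), and by 0.74 without high-fat females 4 and 5. On chow the difference was 0.25 ± 0.08 (adjusted p = 0.097), which those 17 libraries called (0.26, adjusted p = 0.040). The diet effects of the sexes differed by 0.50 ± 0.11, which edgeR did not call (adjusted p = 0.156) and DESeq2 did (adjusted p = 0.022). Ecm2, Chad, Chadl, Nyx and Tsku were not called by edgeR in any comparison. Epyc, Optc and Podnl1 did not pass the filter. Kera, the corneal keratocan gene between Lum and Epyc, had no count in any of the 19 libraries, which allows up to 3 counts, or 0.036 to 0.0539 CPM, in a library.

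The collagens that the SLRPs bind were higher on high fat in females. Of 11 such genes 7 rose and 0 fell, with a median log2 change of 0.30, where 1.67% of all genes rose (8 rose without high-fat females 4 and 5). Col1a1 rose from 138 ± 6.93 to 195 ± 17.9 CPM (0.50 ± 0.07, adjusted p = 0.0011) and Col3a1 from 457 ± 24.6 to 655 ± 101 CPM (0.52 ± 0.08, adjusted p = 0.0043). In males 0 of the 11 were called, at an unadjusted p under 0.05 as well as by DESeq2. Of all 18069 genes, 1539 passed that unadjusted p in males and DESeq2 called 252. For Col1a2, which had the smallest p for a difference between the sexes' diet effects among them, that difference was 0.43 ± 0.08 (adjusted p = 0.111). For this difference 9 of the 11 had an unadjusted p under 0.05, where 1839 of 18069 genes did. DESeq2 called 2 of the 11, against 49 of all genes. Between the sexes on high fat 8 of 11 were higher in females and 1 lower (9 and 1 without the 2 libraries), against 6.4% and 3.92% of all genes. On chow Col14a1, a collagen on the fibril surface, was the 1 called, at 38.7 ± 6.94 CPM in females and 18.4 ± 1.70 in males (1.07 ± 0.13, adjusted p = 7.5e-05), where 1.73% of genes were higher in females. Col14a1 and Lum were thus both higher in females under both diets, while Dcn was not called.

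The enzymes that build the sugar chains changed little between diets. Of 23 genes of chondroitin and dermatan sulfate synthesis, 0 were called between diets in either sex by edgeR or DESeq2 (3 in females and 0 in males at an unadjusted p under 0.05). Of all 18069 genes, 3390 passed that unadjusted p in females and 1539 in males, and DESeq2 called 970 and 252. On high fat 3 of the 23 were higher in females than in males, where 6.4% of all genes were: Chpf by 0.42 ± 0.08 (adjusted p = 0.0030), Chst14, the dermatan 4-O-sulfotransferase, by 0.39 ± 0.10 and Chst7 by 0.40 ± 0.12. Without high-fat females 4 and 5 Chpf was the one of these 3 still called, and 1 other gene of the list was lower. Of 9 genes of keratan sulfate synthesis, B4galt1 was called in the same comparison (0.25 ± 0.06, adjusted p = 0.011; 0.20 without the 2 libraries, adjusted p = 0.037). Between diets 0 of the 9 were called (at an unadjusted p under 0.05, 2 in females and 3 in males; DESeq2 called 1 and 0). Without the 2 libraries 1 was lower in females, and over both sexes St3gal3 was lower (-0.17 ± 0.03, adjusted p = 0.0028).

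Among 18 genes of TGF-beta and BMP ligands, latency proteins and receptors, 5 rose in females on high fat, where 1.67% of all genes rose, the receptors Tgfbr2 (0.27 ± 0.06, adjusted p = 0.024) and Acvrl1 (0.31 ± 0.08, adjusted p = 0.042) among them. Without high-fat females 4 and 5, 0 of the 18 were called (Tgfbr2 0.18, adjusted p = 0.054). In males 0 were called, at an unadjusted p under 0.05 and by DESeq2 too. Of 13 TGF-beta response genes 0 were called between diets in either sex, while 4 in females and 2 in males had an unadjusted p under 0.05 and DESeq2 called 1 in each. Of all 18069 genes, 3390 passed that unadjusted p in females and 1539 in males, and DESeq2 called 970 and 252. Without the 2 female libraries 2 were called higher in males, Acta2 (0.59 ± 0.15, adjusted p = 0.039) among them. In that fit 2.59% of all genes were called between diets in males, in either direction. Over both sexes 1 of the 13 was called higher, where 2.93% of all genes were called in either direction. Without the 2 libraries 2 of the 13 were called higher there, against 8.47% of all genes in either direction. Of 14 proteases and their enhancers that act on the family or its collagens, Mmp2 (0.35 ± 0.07, adjusted p = 0.018) and Pcolce (0.31 ± 0.07, adjusted p = 0.030) rose in females on high fat, and Pcolce was not called without the 2 libraries (adjusted p = 0.070). On high fat 4 were higher in females and 2 lower (against 6.4% and 3.92% of all genes), Ctsk, which encodes cathepsin K, being higher by 0.64 ± 0.11 (adjusted p = 0.0013; 0.62 without the 2 libraries). Of 14 receptors bound by the family, including the biglycan receptors Tlr2 and Tlr4, 0 were called between diets in either sex (3 in females and 0 in males at an unadjusted p under 0.05, and 0 by DESeq2).

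Fibroblast markers were compared beside these results, since fibroblasts are the main source of the family. The summed level of 14 markers was 421.6 to 483.6 CPM in chow females, 458.7 to 530.6 in high-fat females, 435.1 to 496.5 in males on chow and 425.2 to 461.8 in males on high fat, with none of the 14 at 0. High-fat females 4 and 5 held 530.6 and 522.4 CPM, the highest of the group. Between diets in females 1 of the 14 was called, against 2.53% of all genes. This was Clec3b (0.35 ± 0.09, adjusted p = 0.043), which was not called without the 2 libraries, where 1 of the 14 was called higher. At an unadjusted p under 0.05, 6 of the 14 passed in females, where 3390 of 18069 genes did. DESeq2 called 2 of the 14, against 970 of all genes. In males 0 were called, against 0.764% of all genes, and 1 passed an unadjusted p under 0.05, where 1539 of 18069 genes did. Without the 2 libraries 1 was called lower in males, against 225 of 18297 genes. Between the sexes on chow 2 were higher in females (Lsp1 and Tcf21) and 0 lower, where 1.73% of all genes were higher. The median log2 difference of the 14 was -0.03 there, beside 0.01 over all genes. Without the 2 libraries 2 were higher and 2 lower on chow, where 10.5% of all genes were called in either direction. On high fat 5 were higher in females and 1 lower, against 6.4% and 3.92% of all genes. Markers of some other cells also moved between diets in females. Of 10 endothelial markers 3 rose (Cdh5, Tie1 and Pecam1, also without the 2 libraries), where 1.67% of all genes rose. The 10 summed to 985.9 to 1121 CPM on chow and 1146 to 1264 on high fat. In males they summed to 1028 to 1150 CPM on chow and 1141 to 1218 on high fat, with 0 called. Over both sexes 4 of the 10 were called higher, against 313 of 18069 genes. Of 10 cardiomyocyte markers 1 fell in females (Tnnt2, -0.31 ± 0.06, adjusted p = 0.014), where 156 of 18069 genes fell. Without the 2 libraries 5 fell, against 457 of 18297 genes. Of 7 red blood cell markers 1 rose in females (Slc4a1), and 6 without the 2 libraries, where 449 of 18297 genes rose. In males 0 of either list were called. Over both sexes 1 cardiomyocyte marker fell and 2 red blood cell markers rose, against 217 and 313 of 18069 genes. Without the 2 libraries these counts were 6 and 6, against 842 and 707 of 18297 genes. The part of cell numbers in the differences of Lum, Prelp, Bgn and the collagens was not tested. Of 11 markers of valve and tendon, 8 passed the filter, and the 11 summed to 27.09 to 40.27 CPM over all libraries. Fibin was higher in females under both diets (0.62 ± 0.12 on chow, adjusted p = 0.0063) and Prg4 lower on high fat (-0.85 ± 0.12, adjusted p = 0.00040). Of 8 cartilage markers 4 passed, and Cnmd was lower in females, at 0.32 ± 0.10 CPM (n = 5) against 0.92 ± 0.16 (n = 4) on chow and 0.30 ± 0.12 (n = 5) against 1.06 ± 0.31 (n = 5) on high fat. Of all 18069 genes, 269 and 709 were called lower in females in these comparisons. Of these 2 lists, Kera was at 0 in all libraries and Matn1, Matn3 and Col9a1 had 3 counts or fewer in every library.

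Levels of the members were not uniformly alike across the 17 libraries. As descriptions over libraries that share diet and sex groups, the Pearson correlation of log2 levels was 0.76 for Bgn and Lum, 0.57 for Dcn and Ogn and 0.54 for Aspn and Ogn. Within groups these were 0.49, 0.55 and 0.41. Within groups, Aspn and Lum had 0.87, against -0.33 over the 17 libraries as a whole, where females were higher in Lum and males in Aspn on average. Over 19 libraries Aspn and Ogn had 0.985, a value that rests on high-fat females 4 and 5. Of 13505 genes compared over the 17 libraries, the one most like Lum was Ptn, which encodes the heparin-binding growth factor pleiotrophin (r = 0.96), followed by the circadian genes Dbp and Per3 (0.93 each). Their values over 19 libraries were 0.93, 0.92 and 0.92. For Bgn the closest were Cdk1 (0.89, but 0.53 over 19 libraries), Fstl1 (0.87 in both) and Lima1 (0.87), and for Prelp they were Gm15851 (0.89), Capn2 (0.88) and Tek (0.85, but 0.58 over 19 libraries), the last an endothelial receptor. For Ogn they were Ogt (0.90), Tmem87b (0.90) and Zfp950 (0.89), for Aspn Fam102b (0.90), Kctd10 (0.86) and Acta1 (0.86), and for Dcn Laptm4a (0.84), Nae1 (0.83) and Anapc4 (0.81). Fmod was closest to Corin (0.83), Gm20647 (0.78) and P3h4 (0.78), and Omd to Abhd10 (0.81), Zfp128 (0.79) and Mut (0.78). Over 19 libraries Kctd10 turned to -0.34, Acta1 had 0.22, Laptm4a 0.58, Nae1 0.13, Anapc4 0.49, Corin 0.36, Gm20647 0.35 and Abhd10 0.51.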

How the data were processed

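RNA was measured in hearts by polyA-selected sequencing. The authors deposited raw counts per exon piece for 19 libraries, per the file headers, and a read that spans pieces counts in each. A further chow male library was counted per gene and was left out of the fits. GRCm39 is the build in the submitters' processing notes, which also list DESeq2 1.32.0 and Salmon 1.5.1. However, 91.4% of 48970 gene spans equal those of GENCODE vM21 on GRCm38, which is used here. Counts were summed per gene ID. Of 425461 pieces, 33309 carry several IDs. 27829 of them lay in 1 gene's exons and were given to it, and the other 5480 (1.35 to 1.49% of counts) were left out; none touches a member.

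edgeR 4.0.16 (R 4.3.3; TMM, filterByExpr, quasi-likelihood F-test, group means, 15 residual degrees of freedom) was fitted over 19 libraries and 18069 genes, with Benjamini-Hochberg adjustment. An SE is the log2 change divided by the square root of F, and the 95% intervals use it with 15 degrees of freedom. Alternatives were DESeq2 1.42.0 and its size factors, no filter and a filter of 1 CPM in 5 libraries, fits of the compared groups only, a replicate block, a GC offset per library, the longest exon piece, adding the per-gene library, and leaving out libraries. The fit was tested on simulated data. Level per kilobase uses the pieces of the main transcript. Correlations use log2(CPM + 0.1) over genes whose mean level reaches 1 CPM.

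All 8 members are named. Other lists are given by counts, with up to 4 called genes of smallest p named, or 2 where none was called; markers and the 3 most alike genes per member follow the same written rule, and some further genes of the lists are named for their position or role. The members and lists were chosen with earlier results of these data known.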

Additional observations from a re-analysis of the deposited data

Results flagged for a closer look

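Dcn in chow male 1 was at 364 CPM, while the other 3 chow males were all at 347 CPM. Its distance from the nearest of them was 0.965 of the group's range, above the 0.829 expected in at most 1 of 20 groups of 4. In all, 32 sets of values, each of the 8 genes in each of the 4 groups, were examined in this way, so about that share would be marked by chance.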

How the results depend on the processing

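Under every alternative run, Lum and Bgn between the sexes and Prelp between diets kept the direction of their calls. Prelp lost its call in the female groups alone and with the per-gene library. Bgn lost its call with the longest exon piece, which for this gene is a retained-intron stretch of 2536 bases at 0.057 CPM per kilobase. Between diets in females 2 members were called in the 19-library fit, where 457 of 18069 genes were. With no filter it was 1 member and 195 of 33116 genes. The filter of 1 CPM in 5 libraries, which removes Omd, gave 1 member and 598 of 13810 genes. The female groups alone gave 0 members and 21 of 17193 genes. The replicate block gave 1 member and 340 of 18069 genes, and the per-gene library 0 members and 71 of 17909 genes. Leaving out single libraries gave 1 to 3 members and 219 to 909 genes. Over both sexes 1 member (530 of 18069 genes) became 2 with the GC offset (785 of 18016 genes) and 0 with the per-gene library (260 of 17909). Leaving out single libraries gave 1 to 2 members there. Between the sexes on high fat that range was 2 to 4. DESeq2 called Bgn between diets in females (adjusted p = 0.030) and gave no adjusted p for Omd. Libraries of the same replicate number were weakly alike: of 27 such pairs 2 had a correlation over 0.1 (median 0.025, against -0.005 for other pairs). Of 19 libraries 7 correlated best with their own number. The number to be met by chance was not computed, so pairing was neither shown nor excluded.

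Signs turned only in comparisons where the member concerned was not called in the 19-library fit. The cause was not tested except where fewer libraries make it plain. With the replicate block Bgn between diets in males was -0.0058. Without high-fat females 4 and 5 it was 0.063 for Aspn and 0.036 for Ogn between diets in females, 0.12 for both and 0.00 (-0.0005) for Dcn over both sexes, and -0.11 for Fmod in diet by sex. With the GC offset Dcn was 0.70 between diets in females, -0.027 in males, 0.72 in diet by sex and 0.79 between the sexes on high fat (adjusted p = 0.049), Omd -0.065 between diets in males, Lum 0.20 and Fmod -0.12 in diet by sex. With the longest piece Dcn was 0.014 between diets in females, Bgn -0.18 and Omd -0.068 between diets in males, Lum 0.059 in diet by sex, and Ogn -0.024 and Bgn -0.36 between the sexes on chow. With the per-gene library Omd was -0.0006 between diets in males, Lum 0.10 in diet by sex and Ogn -0.043 between the sexes on chow. Leaving out single libraries gave values on both sides of 0 for Bgn between diets in males (-0.068 to 0.048), Dcn in females (-0.053 to 0.012), Fmod in diet by sex (-0.103 to 0.153), Ogn between the sexes on chow (-0.046 to 0.081) and Omd between diets in males (-0.087 to 0.152). The per-kilobase order of Ogn and Lum, and of Aspn and Prelp, turned with the longest piece, and Bgn, at its intron stretch, came last, below Omd at 0.28. Depth limits Omd alone among the members: 3 counts are 0.036 to 0.0539 CPM.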
